A study of Mus musculus with 5 samples.

Results

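Autophagy delivers cytoplasm, organelles and microbes to the lysosome inside membrane vesicles called autophagosomes. Transcripts of 37 genes of its core machinery and cargo receptors were followed in mouse bone marrow-derived macrophages exposed to lipopolysaccharide (LPS), the bacterial cell wall component sensed by TLR4. The 37 genes were chosen by symbol, as a list of the pathway, from the 13339 genes of an expression table, and all 37 were found there. The list and its classes were drawn up with earlier results of these libraries known. Marrow precursors of 8-week-old C57BL/6 mice had been grown for 5 days with M-CSF, a macrophage growth factor. They then received LPS at 100 ng/ml for 4, 8, 12 or 24 h, and the 0 h library had none. With 1 library for each time, neither an error between animals or cultures nor a p-value could be computed, and every difference below sets a pair of libraries side by side. Runs of 5 values are in the order 0, 4, 8, 12 and 24 h. No cells kept without LPS for 4 to 24 h were analysed here, so the effect of LPS and that of longer culture cannot be told apart. The titles mark every library as WT2, and 1 protocol field names dendritic cells (mDCs) where the other labels name macrophages.

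Autophagosome formation starts with the ULK1 kinase complex, which responds to nutrient and energy signals. It activates a lipid kinase complex built around VPS34 and Beclin 1, whose product, the lipid PI3P, marks the site where the vesicle grows. ATG9 vesicles and the lipid channel ATG2 then supply membrane, and WIPI proteins read the PI3P mark. A pair of ubiquitin-like conjugation reactions follows, in which ATG7, ATG3, ATG10, ATG5, ATG12 and ATG16L1 attach proteins of the ATG8 family (LC3 and GABARAP) to the membrane. Cargo receptors such as p62 bind ubiquitin-tagged cargo on one side and ATG8 proteins on the other. In macrophages the pathway removes damaged mitochondria and intracellular bacteria and tempers inflammasome activity.

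Levels are in FPKM, fragment counts divided by transcript length in kilobases and by the mapped fragments of that library, so that genes of different length can be set side by side. Differences were taken on log2(FPKM + 1), and a 2-fold difference on that scale was the limit for calling a gene higher or lower. The same count is given for the 9795 genes whose mean over the 5 libraries was at least 1 FPKM; all 37 autophagy genes passed this filter and were above 0 in every library. The steps between low values put the depth near 18.8 to 19.2 M reads (megareads) per library. With the length of the longest coding transcript, this gives an estimate of 43.2 reads or more for any autophagy gene in any library. Where shorter transcripts were measured, the estimate is too high and the intervals below are too narrow. Counting intervals quoted below (95%, Poisson) rest on this depth and length and cover counting error only. The median log2 level of all genes differed from that of the 0 h library by -0.58 (4 h), -0.46 (8 h), -0.30 (12 h) and -0.05 (24 h). Short transcripts were further below 0 h than long ones at 4 h, with a median of -1.29 for the shortest 10% of genes and -0.06 for the longest 10%. The same order held against 0 h at 8 h (-1.06 and -0.20), 12 h (-0.97 and 0.04) and 24 h (-0.77 and 0.35). At 24 h against 4 h these medians were 0.42 and 0.40. Differences are therefore also given after subtracting the median level of each library ("centred") and after taking out a smooth trend on transcript length ("length-adjusted"). The 7 macrophage markers summed to between 2719 and 3241 FPKM in every library, but not each alike: Cd68 was at 824 FPKM at 24 h against 1896 FPKM at 0 h, and Adgre1 at 967 against 340 FPKM. Of 7 neutrophil markers 6 were found by symbol, and Elane was not. Those 6 summed to 58.6 FPKM at 24 h against 327 FPKM at 0 h. Mpo was at 0 at 24 h, and Ly6g was higher there (3.71 against 0.12 FPKM). Also found by symbol were 5 of 6 markers of dendritic cells and 4 of 7 of lymphocytes and NK cells. For stroma 5 of 5 were found, and for erythroid cells 1 of 4. Each of these sets summed to at most 15.6 FPKM in any library. That maximum was of dendritic cell markers at 8 h, of which Ccr7 alone was 14.8 FPKM. The part of the lower neutrophil signal in the differences from 0 h was not tested. In bulk RNA, fewer cells of a type and less RNA per cell cannot be told apart.

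On the deposited scale, most of the autophagy genes were lowest 4 h into LPS and within 2-fold of 0 h at 24 h. At 4 h against 0 h, 23 of 37 genes passed the limit as lower and 0 as higher, in a comparison in which 38.1% of all genes were lower and 12.2% were higher. Those 23 are 62.2% of the autophagy genes. The median difference was -1.29 for the 37 genes and -0.70 for all genes. Centred, 11 of the 37 were lower (16.3% of all genes) and 4 were higher (19.4%), and length-adjusted, 12 were lower (11.8%) and 3 were higher (19.7%). The 4 genes higher when centred were Atg16l1, Optn, Tax1bp1 and Ambra1, and the length-adjusted 3 were the first 3 of these.

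The count of lower genes shrank with time in LPS. At 8 h against 0 h, 12 genes were lower (28.9% of all genes) and 2 were higher (12.0%), and at 12 h against 0 h, 8 were lower (21.5%) and 2 were higher (12.3%). At 24 h against 0 h, 5 genes were lower (14.5% of all genes) and 1 was higher (11.3%), which is no more than the share of all genes. Centred, these counts were 5 (13.5%) and 1 (11.9%), and length-adjusted, 4 (9.58%) and 2 (12.1%). The median difference of the 37 genes at 24 h against 0 h was -0.05, against -0.11 for all genes. At 24 h against 4 h, 17 genes were higher (25.0% of all genes) and 1 was lower (8.19%). Centred, 8 were higher (8.94%) and 2 lower (16.0%), and length-adjusted, 9 were higher (9.76%) and 1 lower (14.8%). Of the 37 genes, 14 were both lower at 4 h than at 0 h and higher at 24 h than at 4 h, a pattern that 17.8% of all genes had. These calls share the 4 h library, and with it any error of that library. The lowest of the 5 deposited values fell at 4 h for 23 of the 37 genes, or 62.2%, and for 46.1% of all genes. That count was not made on the other scales. Centred, Rb1cc1, Becn1, Atg9a, Atg3, Atg4a and Atg4b of these 23 were above 0 h at 4 h. Gabarap, also of the 23, was lower at 24 h (-0.77) than at 4 h (-0.52) when centred. The highest deposited value fell at 0 h for 20 genes (48.7% of all genes) and at 24 h for 10 genes (24.5% of all genes).

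**Figure D1:**
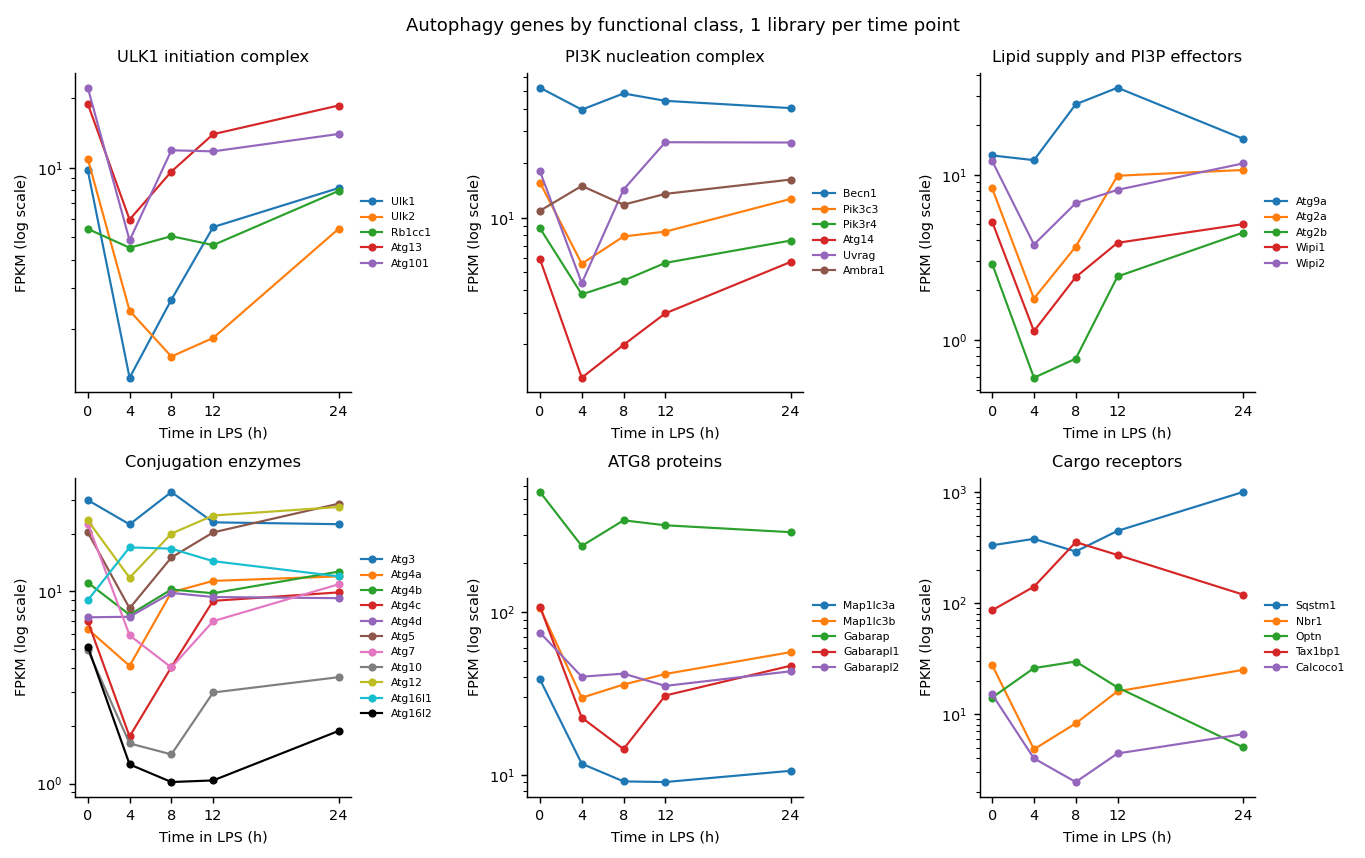
FPKM (log axis) of the 37 autophagy genes against time in LPS, in hours, with a panel per functional class, a line per gene and a point per library. The initiation and membrane supply panels are lowest at 4 h for most genes and near the start again at 24 h, the ATG8 panel stays below 0 h, and the receptors go separate ways, with Sqstm1 at 996 FPKM and Optn at 5.04 FPKM at 24 h.

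The classes differed in how far they dipped and in whether they came back. At 4 h against 0 h the median difference was -1.81 for the 5 genes of the ULK1 initiation complex, -1.64 for the 5 ATG8 genes, -1.46 for the 5 membrane supply and PI3P effector genes, -1.18 for the 6 genes of the PI3K nucleation complex and -0.93 for the 11 conjugation enzymes. The 5 cargo receptors had a median of 0.19. Centred, these medians were -1.23, -1.06, -0.87, -0.60 and -0.35, and 0.77 for the receptors. Length-adjusted, they were -0.92 for initiation, -0.45 for ATG8, -1.09 for membrane supply, -0.63 for nucleation, -0.16 for conjugation and 0.97 for the receptors. The order of the machinery classes therefore depended on the scaling, whereas the receptors had the highest median of the 6 classes on all 3 scales at 4 h. The medians at 24 h against 0 h were 0.31 for membrane supply, 0.22 for conjugation, -0.12 for nucleation, -0.14 for receptors, -0.23 for initiation and -0.89 for the ATG8 genes. The ATG8 median at 24 h was -0.85 centred and -0.73 length-adjusted, the lowest of the 6 classes on all 3 scales.

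**Figure D2:**
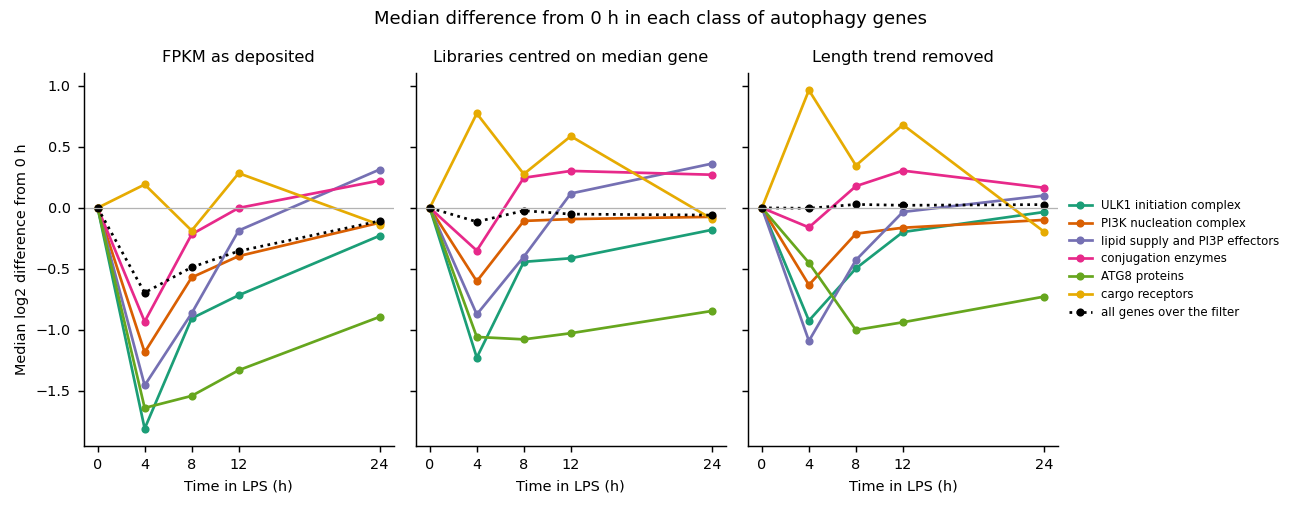
Median log2 difference from 0 h of each functional class against time in LPS, in hours, on the deposited scale, after centring each library, and with the length trend removed; the dotted line is the median of all 9795 genes over the filter. The receptors lie above the other classes at 4 h in all 3 panels, and the ATG8 genes end lowest, between -0.89 and -0.73 at 24 h.

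Within the initiation complex, 4 of 5 genes were lower by 2-fold or more at 4 h against 0 h (3 when centred and 2, Ulk1 and Ulk2, length-adjusted). Of all genes, 38.1% were lower at 4 h, 16.3% when centred and 11.8% length-adjusted. Ulk1, the kinase that starts the cascade (chromosome 5), stood at 9.73, 1.23, 2.68, 5.53 and 8.16 FPKM from 0 to 24 h. Its 4 h library was 7.91-fold below 0 h, with counting intervals of 1.02 to 1.47 FPKM at 4 h and 9.13 to 10.4 FPKM at 0 h, and the later libraries climbed in order. Its paralog Ulk2 followed another course, with 10.9, 2.40, 1.52, 1.83 and 5.43 FPKM at 0, 4, 8, 12 and 24 h. At 24 h against 0 h the difference of Ulk2 was -0.89, and length-adjusted it was -1.06, past 2-fold. Ulk2 was lowest at 8 h, so that Ulk1 made up 47.1% of the summed FPKM of the pair at 0 h, 33.9% at 4 h and 75.1% at 12 h. Such shares within a library do not depend on how libraries are scaled against each other, and with the length trend removed they were 47.1%, 35.3% and 76.0%.

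The adaptor gene Atg13 had 18.9, 5.96 and 18.6 FPKM in the 0, 4 and 24 h libraries, and Atg101, its stabilising partner, had 22.2, 4.84 and 14.0. Both were past 2-fold at 4 h and within 2-fold of 0 h at 24 h. The difference of Atg13 at 4 h was -0.93 centred and -0.92 length-adjusted, under 2-fold. That of Atg101 (transcript of 1270 nt) was -1.99 on the deposited scale and -1.41 centred, still past 2-fold. Length-adjusted, that of Atg101 was -0.86. Rb1cc1, which encodes the scaffold FIP200, was the exception in the complex. It had 5.43, 4.50, 5.05, 4.62 and 7.93 FPKM at 0, 4, 8, 12 and 24 h, a range of 1.76-fold across the libraries. Its exons overlap those of an annotated antisense transcript, 4732440D04Rik, over 558 nt.

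In the nucleation complex, Becn1 and Ambra1 stayed within 2-fold of 0 h in every library on the deposited scale. The other 4 genes were lower by 2-fold or more at 4 h (1 when centred and 2 length-adjusted). The shares of all genes were 38.1%, 16.3% when centred and 11.8% length-adjusted. Centred, Ambra1 was just past 2-fold higher at 4 h (1.004). Becn1, which encodes Beclin 1, was the most abundant of the 6, with 52.2, 39.6, 48.6, 44.2 and 40.3 FPKM from 0 to 24 h. Its annotated exons overlap those of Cntd1 on the opposite strand over 3104 nt, and the sources used here do not say whether reads were counted by strand, so the 2 genes may share reads. Pik3c3, the lipid kinase VPS34, had 15.6, 5.58 and 12.7 FPKM in the 0, 4 and 24 h libraries, and Pik3r4, its regulatory partner VPS15, had 8.76, 3.78 and 7.49. The kinase and its partner were therefore lower together at 4 h, by log2 differences of -1.34 and -1.03; length-adjusted, these were -0.67 and -0.59, neither of them 2-fold. Ambra1, a Beclin 1 regulator, was the only gene of the complex with its lowest value at 0 h, with 10.9, 15.0, 11.8, 13.6 and 16.3 FPKM over the 5 times.

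Atg14 and Uvrag encode alternative subunits that direct the lipid kinase to autophagosome formation and to endosomes. Atg14 stood at 5.91, 1.31, 1.99, 2.97 and 5.71 FPKM from 0 to 24 h. Uvrag stood at 18.1, 4.36, 14.3, 26.14 and 26.04 FPKM from 0 to 24 h. Both were more than 4-fold below 0 h at 4 h, by 4.51-fold for Atg14 and 4.14-fold for Uvrag, but Uvrag was already above its 0 h value at 12 h, when Atg14 was 1.99-fold below it. Length-adjusted, the differences at 4 h were -1.01 for Atg14 and -1.46 for Uvrag; centred, Uvrag was past 2-fold (-1.25) and Atg14 was just short of it (-0.9988). Exons of both overlap annotated antisense transcripts, Gm49004 over 239 nt for Atg14 and Gm45187 over 1589 nt for Uvrag.

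Of the 5 genes that supply membrane or read PI3P, all but Atg9a were past 2-fold lower at 4 h, where 38.1% of all genes were lower. Centred, only Atg2a passed (16.3% of all genes were lower), and length-adjusted, Atg2a, Atg2b and Wipi2 (11.8%). Atg2a, a lipid transfer protein, had 8.27, 1.78, 3.67, 9.86 and 10.7 FPKM from 0 to 24 h. Atg2b, its paralog, had 2.89, 0.59, 0.77, 2.42 and 4.46 FPKM, and its 4 h value was the lowest of the 37 genes in any library. Both were lowest at 4 h and highest at 24 h, and 24 h was 6.00-fold above 4 h for Atg2a and 7.56-fold above 4 h for Atg2b. Exons of Atg2b overlap those of Gskip on the opposite strand over 383 nt. Wipi1 had 5.19, 1.13 and 5.02 FPKM in the 0, 4 and 24 h libraries, and Wipi2 had 12.1, 3.78 and 11.7. Atg9a, the transmembrane scramblase that seeds the vesicle, had its highest value late. It stood at 13.1, 12.2, 26.7, 33.6 and 16.5 FPKM at 0, 4, 8, 12 and 24 h, so that the 12 h library was 2.57-fold above 0 h. Exons of the transcript Gm29253 on the same strand overlap those of Atg9a over 1832 nt, which leaves the source of its reads uncertain.

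Of the 11 conjugation enzymes, 5 were lower by 2-fold or more at 4 h (Atg4c, Atg5, Atg7, Atg10 and Atg16l2) and 0 were higher, where 38.1% of all genes were lower. Centred, only Atg7 was lower (16.3% of all genes), and length-adjusted, only Atg7 and Atg16l2 (11.8%). Atg16l1 was higher on both of these scales, on which 19.4% and 19.7% of all genes were higher. Atg5, which forms a conjugate with Atg12, had 20.3, 8.17, 15.0, 20.3 and 28.6 FPKM from 0 to 24 h. Atg12 itself had 23.4, 11.8, 20.0, 24.8 and 27.5 FPKM, and its difference at 4 h (-0.93) was just short of 2-fold. Both partners were lowest at 4 h and highest at 24 h. Length-adjusted, the difference at 4 h was -0.39 for Atg5 and -0.50 for Atg12. Atg7, the E1-like enzyme that activates both ubiquitin-like proteins, had 22.5, 5.91, 4.02, 7 and 10.9 FPKM from 0 to 24 h. All 4 libraries under LPS were below 0 h for Atg7, by 5.60-fold at 8 h and 2.07-fold at 24 h, and length-adjusted the differences were -1.84 at 8 h and -0.97 at 24 h. Atg10, the E2-like enzyme for Atg12, had 4.97, 1.62, 1.42, 2.98 and 3.58 FPKM, with wide counting intervals (1.03 to 1.91 FPKM at 8 h). Its difference of -1.19 at 4 h was -0.16 length-adjusted, and its sign turned at 12 h and at 24 h, to 0.07 at both. Atg3, the E2-like enzyme for the ATG8 proteins, stayed between 22.3 and 32.9 FPKM.

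Atg16l1 and Atg16l2, paralogs of which Atg16l1 directs lipidation to the membrane, went in opposite directions. Atg16l1 had 9, 16.9, 16.7, 14.4 and 12.0 FPKM from 0 to 24 h. Atg16l2 had 5.16, 1.26, 1.02, 1.04 and 1.88 FPKM from 0 to 24 h. Every library under LPS was thus above 0 h for Atg16l1 and below it for Atg16l2. The difference of Atg16l1 at 4 h was 0.84, short of 2-fold, and was 1.43 centred and 1.54 length-adjusted. For Atg16l2 the difference was -1.45 at 4 h and -1.10 at 24 h. Atg16l1 accounted for 93.1% of the summed FPKM of the pair at 4 h and 86.4% at 24 h, against 63.6% at 0 h.

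The 4 ATG4 proteases, which trim ATG8 proteins before lipidation and remove them from membranes, were at 20.8 FPKM in sum at 4 h and 43.7 FPKM at 24 h, against 31.8 FPKM at 0 h. Atg4c was the variable member, with 6.99, 1.76, 4.04, 8.93 and 9.88 FPKM over the 5 times, and was 3.97-fold below 0 h at 4 h. Atg4a was 1.88-fold above 0 h at 24 h (11.97 against 6.37 FPKM), and length-adjusted this difference was 1.07, past 2-fold. A retrogene copy, Atg4a-ps, is annotated, so reads of Atg4a may be divided. Atg4b ranged from 7.56 to 12.7 FPKM. Atg4d ranged from 7.33 to 9.82 FPKM, and 1405 nt of its exons overlap those of Kri1 on the opposite strand.

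RefSeq promoter windows (GRCm38.p6, 250 nt before to 50 nt after the start site) were at hand for 31 of the 37 genes. The E-box CACGTG, the core of the motif bound by TFEB, an activator of lysosome and autophagy genes, was found in windows of 4 of these 31 genes (Atg3, Atg5, Atg7 and Atg14), and in 8.09% of all genes with a window. The Atg7 window starts 13032 nt downstream of the nearest coding transcript start in GENCODE, and the other 3 lie within 44 nt of such a start. The windows of Atg5 and Atg14 are shown because both genes were called lower at 4 h against 0 h and higher at 24 h against 4 h, and both hold the E-box close to the start site. Of the 4 genes with the E-box, Atg3 and Atg7 did not have this pattern of calls, which 14 of the 37 genes had. Atg5 and Atg14 were thus picked for both traits, and whether the E-box goes with the pattern was not tested. Capitals mark matches to the 6 motifs searched on both strands: E-box (CACGTG), antioxidant response element (TGACNNNGC), AP-1 (TGANTCA), FOXO (GTAAACA), the ISRE and the NF-kappaB motif.
Atg5, chr10:44268089-44268388, + strand: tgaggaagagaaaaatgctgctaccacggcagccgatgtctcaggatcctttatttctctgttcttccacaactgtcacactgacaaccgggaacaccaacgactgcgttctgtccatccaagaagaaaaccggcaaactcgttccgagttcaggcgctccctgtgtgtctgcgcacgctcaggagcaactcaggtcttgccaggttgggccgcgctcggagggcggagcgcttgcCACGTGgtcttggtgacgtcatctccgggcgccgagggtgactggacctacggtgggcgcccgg
Atg14, chr14:47568385-47568684, - strand: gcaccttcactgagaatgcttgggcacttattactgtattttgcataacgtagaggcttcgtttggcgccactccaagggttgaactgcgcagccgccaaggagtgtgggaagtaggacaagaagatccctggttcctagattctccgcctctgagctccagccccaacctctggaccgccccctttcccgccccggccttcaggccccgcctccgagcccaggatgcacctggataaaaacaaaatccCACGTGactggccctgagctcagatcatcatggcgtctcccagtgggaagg
The E-box begins at position -14 of Atg5 and at position -1 of Atg14, counted from the RefSeq start site. A match describes the letters only and is no evidence of binding.

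On the deposited scale all 5 ATG8 genes were highest at 0 h, so each was below that value in all 4 libraries under LPS. Gabarap was the most abundant, with 549, 256, 368, 343 and 311 FPKM from 0 to 24 h. Its difference at 4 h, -1.10 on the deposited scale, was -0.52 centred and 0.01 length-adjusted, and at 8 and 12 h it was 0.27 and 0.09 length-adjusted, so its direction at these times depended on the scaling. Gabarapl2 likewise had -0.88 at 4 h, -0.30 centred and 0.12 length-adjusted. Map1lc3b, which encodes the LC3B protein used to follow autophagosomes, had 107, 29.8, 35.9, 41.7 and 56.9 FPKM from 0 to 24 h. It was 3.57-fold below 0 h at 4 h and 1.87-fold below at 24 h. Gabarapl1 had the widest range of the family, with 108, 22.5, 14.4, 30.8 and 46.9 FPKM, and was 7.52-fold below 0 h at 8 h; its exons overlap those of 1700101I11Rik on the opposite strand over 570 nt. Map1lc3a had 38.6, 11.7, 9.12, 9.04 and 10.6 FPKM and so stayed between 9.04 and 11.7 FPKM in all libraries under LPS. The differences at 24 h against 0 h were -1.77 for Map1lc3a, -1.19 for Gabarapl1, -0.89 for Map1lc3b, -0.82 for Gabarap and -0.78 for Gabarapl2 (43.4 against 74.9 FPKM). Length-adjusted, these were -1.08, -0.82, -0.73, -0.27 and -0.36, so that only Map1lc3a remained past 2-fold at 24 h on that scale. The 5 genes are short, between 1112 and 2633 nt, and are similar in coding sequence, so the deposited values can depend on how shared reads were divided.

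The makeup of the ATG8 pool shifted towards Gabarap at 4 to 12 h. In sum the 5 genes stood at 360 FPKM at 4 h and 469 FPKM at 24 h, against 877 FPKM at 0 h. From 0 to 24 h Gabarap made up 62.6%, 71.1%, 78.4%, 74.6% and 66.3% of this sum. Gabarapl1 made up 12.3%, 6.25%, 3.07%, 6.70% and 10.01% at the same times. With the length trend removed the 8 h shares were 80.3% for Gabarap and 2.83% for Gabarapl1. The share of Map1lc3b was 12.1% at 24 h and 12.1% at 0 h, and with the length trend removed it was 9.74% at 24 h.

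**Figure D3:**
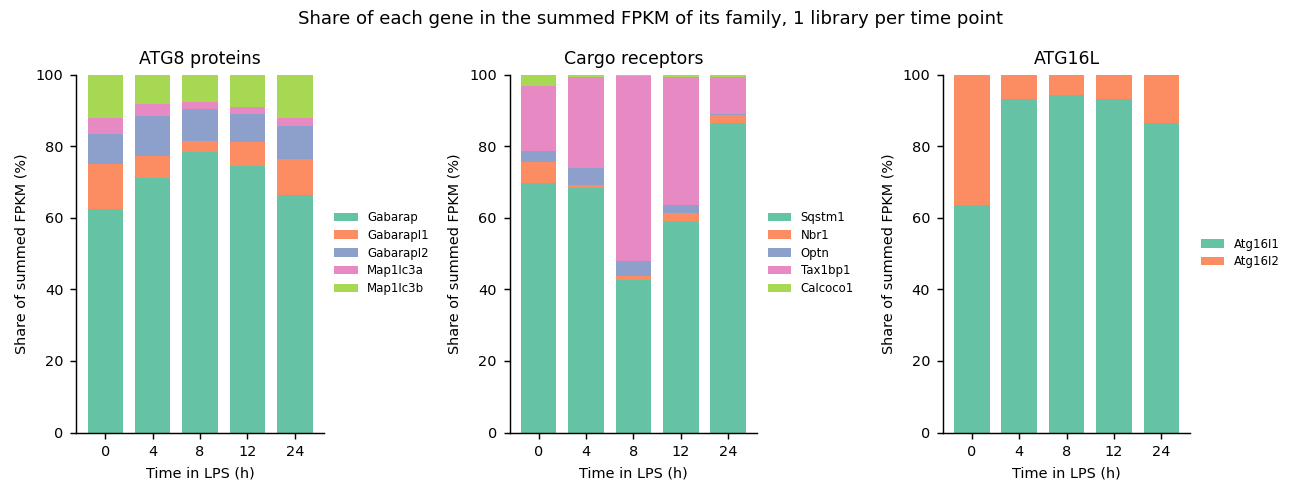
Share of each gene, in percent of the summed FPKM of its family, in the 0, 4, 8, 12 and 24 h libraries, for the 5 ATG8 genes, the 5 cargo receptors and the ATG16L pair. Gabarap widens to 78.4% at 8 h, Tax1bp1 takes 51.6% of the receptor sum at 8 h and Sqstm1 86.5% at 24 h, and Atg16l1 takes at least 86.4% of its pair at every time under LPS.

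The cargo receptors did not move as a group: their differences at 4 h against 0 h ran between -2.30 and 0.83. Each of the 5 was at least 2-fold from its 0 h value in 1 or more libraries under LPS. This held for 28 of the 37 genes, among them all 5 ATG8 genes and all 5 membrane supply genes. The share of all genes was not computed, so the count does not set the receptors apart. Sqstm1, which encodes the ubiquitin-binding receptor p62, was high throughout and highest at 24 h, with 331, 378, 290, 446 and 996 FPKM from 0 to 24 h. Its 24 h library was 3.01-fold above 0 h and 2.64-fold above 4 h, and it lay at percentile 99.6 of all genes over the filter at 24 h against 97.9 at 0 h. On the deposited scale Sqstm1 alone of the 37 genes was past 2-fold higher at 24 h (1.59; 1.64 centred and 1.75 length-adjusted). Length-adjusted, Atg4a joined it, as given above. Exons of Mrnip on the opposite strand overlap those of Sqstm1 over 580 nt.

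Tax1bp1, a receptor that also acts with the A20 ubiquitin-editing complex to restrain NF-kappaB signalling, peaked in the middle of the course. It stood at 86.1, 140, 353, 270 and 119 FPKM from 0 to 24 h. The 8 h library was 4.10-fold above 0 h, the largest positive difference of any of the 37 genes in any library (2.02; 2.49 centred and 2.47 length-adjusted). Optn, which encodes optineurin, a receptor for bacteria and damaged mitochondria, was above its start at 4 to 12 h and below it at 24 h. It stood at 14.1, 25.9, 29.7, 17.4 and 5.04 FPKM from 0 to 24 h. Optn was 2.11-fold above 0 h at 8 h and 2.80-fold below 0 h at 24 h, with counting intervals of 4.43 to 5.70 FPKM at 24 h and 13.1 to 15.2 FPKM at 0 h. It was the 1 gene lower at 24 h than at 4 h by 2-fold or more, by a difference of -2.16, which was -2.69 centred and -2.70 length-adjusted; centred, Atg16l1 joined it with -1.001.

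Nbr1 and Calcoco1 were lower than at 0 h in all libraries under LPS. Nbr1, a receptor for aggregates and peroxisomes, had 27.6, 4.83, 8.26, 16.0 and 25.0 FPKM from 0 to 24 h. Its difference of -2.30 at 4 h on log2(FPKM + 1) was the largest of the 37 genes at that time, and was -1.71 centred and -1.86 length-adjusted. Ulk1 was close behind on log2(FPKM + 1) (-2.27). Ulk1 was further below 0 h than Nbr1 in the plain FPKM ratio (7.91-fold against 5.72-fold) and length-adjusted (-1.91). Calcoco1, a receptor for the endoplasmic reticulum and Golgi, had 15.0, 4.00, 2.45, 4.43 and 6.6 FPKM, and was 6.13-fold below 0 h at 8 h and 2.28-fold below at 24 h. Length-adjusted, its difference was -1.72 at 8 h, and -0.96 at both 4 h and 24 h, under 2-fold. Nbr1 was back near its start at 24 h. In sum the receptors stood at 1152 FPKM at 24 h against 473 FPKM at 0 h, and 86.5% of the 24 h sum was Sqstm1, against 69.8% at 0 h. Tax1bp1 made up 51.6% at 8 h, when Sqstm1 made up 42.5%.

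The NF-kappaB motif was found in promoter windows of 3 of the 31 genes (Sqstm1, Tax1bp1 and Atg16l2), and in 6.55% of all genes with a window. The antioxidant response element was found in 4 of 31 (Atg13, Map1lc3b, Tax1bp1 and Ulk2) and in 14.0% of all genes, the ISRE in 1 of 31 (Nbr1) and in 3.99%, and AP-1 and FOXO in 0 of 31, against 8.97% and 4.05%. The windows of Sqstm1 and Tax1bp1 are shown because these receptors were the most abundant and had the largest positive differences, at different times. Tax1bp1 has a second window upstream, with no match.
Sqstm1, chr11:50210771-50211070, - strand: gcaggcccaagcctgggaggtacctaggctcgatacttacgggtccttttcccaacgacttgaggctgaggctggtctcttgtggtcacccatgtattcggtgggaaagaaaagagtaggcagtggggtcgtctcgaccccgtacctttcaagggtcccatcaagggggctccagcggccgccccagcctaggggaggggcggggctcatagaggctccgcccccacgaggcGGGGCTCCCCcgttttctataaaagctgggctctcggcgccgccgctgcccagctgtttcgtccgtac
Tax1bp1, chr6:52713915-52714214, + strand: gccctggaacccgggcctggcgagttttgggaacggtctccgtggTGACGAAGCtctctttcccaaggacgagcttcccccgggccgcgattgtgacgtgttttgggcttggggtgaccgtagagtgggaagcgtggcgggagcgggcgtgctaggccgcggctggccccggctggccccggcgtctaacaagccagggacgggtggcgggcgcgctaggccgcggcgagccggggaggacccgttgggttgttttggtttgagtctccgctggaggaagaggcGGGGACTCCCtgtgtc
In Sqstm1 the capitals mark an NF-kappaB match at position -18. In Tax1bp1 they mark an antioxidant response element at position -205 and an NF-kappaB match at position 35 that reads on both strands. Atg16l2, which also holds an NF-kappaB match, was below 0 h in every library under LPS.

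**Figure D4:**
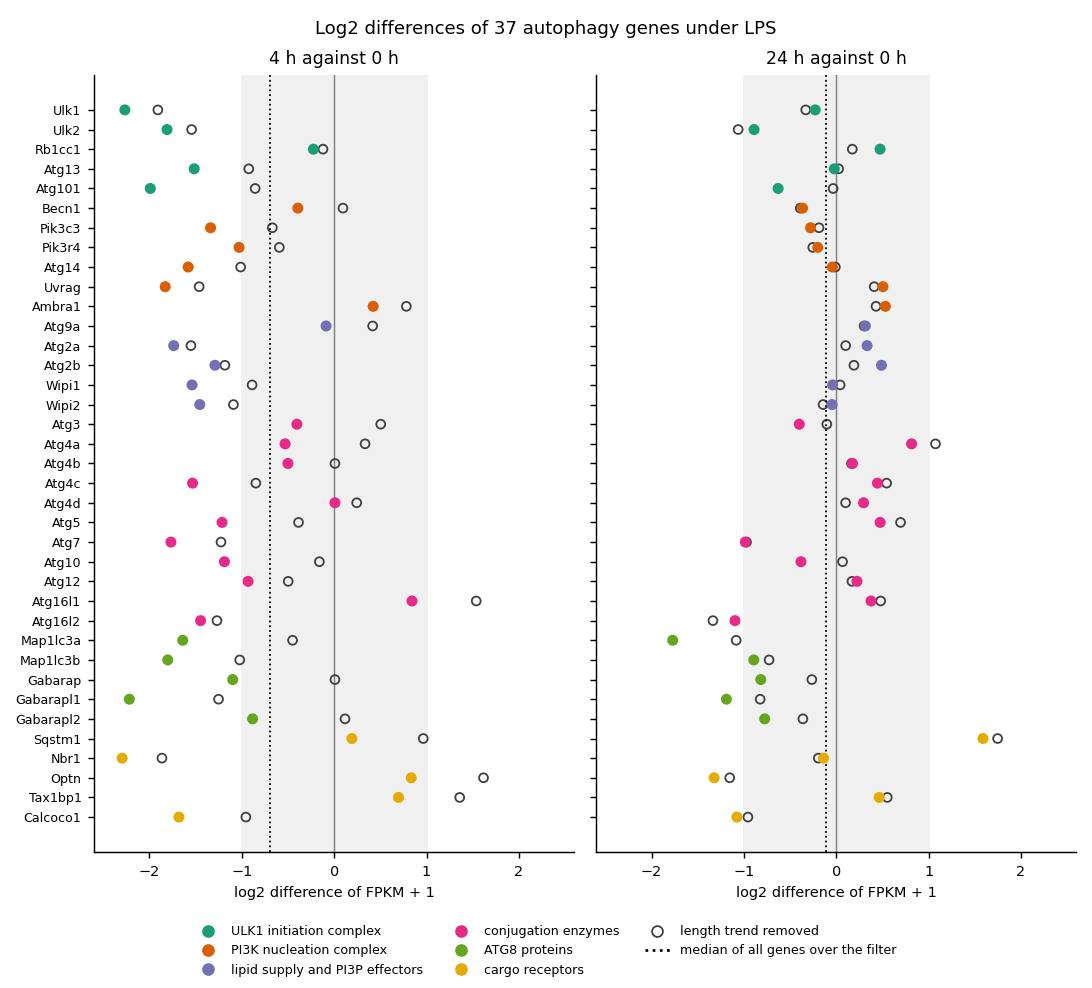
Log2 difference of FPKM + 1 for each of the 37 genes at 4 h against 0 h (left) and 24 h against 0 h (right), coloured by class; open circles have the length trend removed, the dotted line is the median of all genes over the filter and the grey band marks differences under 2-fold. At 4 h 23 filled points lie left of the band and 0 right of it; at 24 h 5 lie left of it and Sqstm1 alone lies right of it.

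Genes that act around the core machinery were read from 3 further lists with 73 genes, of which 72 were in the table and 67 passed the filter. They cover autophagosome closure and fusion, organelle receptors, and regulators of the pathway. At 4 h against 0 h, 28 of the 67 genes (41.8%, against 38.1% of all genes) were lower and 3 (4.48%, against 12.2%) were higher. At 24 h against 0 h, 11 (16.4%, against 14.5% of all genes) were lower and 9 (13.4%, against 11.3%) were higher, shares close to those of all genes. Of 24 closure and fusion genes, 9 were lower and 0 higher at 4 h (length-adjusted, 7 and 1), and 2 were lower and 2 higher at 24 h (2 and 1). Of 16 organelle receptors and mitophagy genes, 7 were lower and 1 higher at 4 h (length-adjusted, 2 and 1), and 6 were lower and 2 higher at 24 h (5 and 2). Of 27 regulators, 12 were lower and 2 higher at 4 h (length-adjusted, 9 and 5), and 3 were lower and 5 higher at 24 h (4 and 3). Length-adjusted, 11.8% of all genes were lower and 19.7% higher at 4 h, and 9.58% were lower and 12.1% higher at 24 h. The median at 24 h against 0 h was -0.76 for the organelle receptors, -0.15 for closure and fusion and -0.01 for the regulators (-0.35, -0.03 and 0.15 length-adjusted).

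Among these genes the largest positive differences at 4 h were those of Irgm1, an interferon-induced GTPase linked to autophagy of bacteria (509 FPKM at 4 h against 29.7 at 0 h), the mTORC2 subunit gene Rictor (9.83 against 1.89) and Tbk1, a kinase that phosphorylates optineurin and p62 (73.3 against 30.7). Tbk1 was between 69.6 and 76.0 FPKM in all libraries under LPS. The largest negative differences at 4 h were those of Sesn1, a restrainer of mTORC1, with -5.61, the transcription factor gene Tfeb with -4.42 and Prkag2, a subunit of the energy sensor AMPK, with 0.50 FPKM at 4 h against 8.64 at 0 h. At 24 h the largest positive differences were those of the mitophagy receptor gene Bnip3 with 3.23, Irgm1 with 2.59 and Ddit4, an mTORC1 inhibitor induced by stress, with 4.24 FPKM at 24 h against 0.74 at 0 h. The largest negative differences at 24 h were those of Sesn1 with -3.50, of Pink1, the kinase that marks damaged mitochondria (10.6 FPKM at 24 h against 59.7 at 0 h), and of Tecpr1, a tether of autophagosomes and lysosomes (12.2 against 65.7).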

How the data were processed

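RNA was sequenced from 5 mouse macrophage libraries, 1 per time point, on the BGISEQ-500 platform, per the labels' protocols. The authors deposited 1 table of FPKM values with 2 decimals, per the file headers. Per the submitters' processing notes the tools included Bowtie2 and RSEM and the build was GRCm38; no version is stated, and the sources used here do not give the annotation, strandedness or filters. Library columns were matched to samples by title.

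Genes with a mean below 1 FPKM across the 5 libraries were left out of counts. Differences were taken on log2(FPKM + 1), which understates the change of low genes, with a threshold of 2-fold. Each of 5 pairs of libraries was described without a test. The length trend was a lowess fit (span 0.3, statsmodels 0.14.6) of the difference on the log2 length of the longest coding transcript in GENCODE M21, known for all 37 genes and 99.5% of genes over the filter. The calling and trend steps were run on simulated data with counting error only and a known length trend. There a small set of genes changed, by a fixed amount above 2-fold, in either direction. In the libraries, 38.1% of genes were lower and 12.2% higher at 4 h against 0 h. The simulation therefore cannot say how well the steps work on these data. Depth was estimated from low values of genes with 1 annotated transcript of 400 to 2500 nt: at the best of the depths tried from 10 to 30 M reads, 54.1% to 67.4% of 122 to 143 values per library were whole reads (tolerance 0.04 reads, or 0.005 FPKM where that is more), against 27.1% to 33.6% at the median depth tried. Whole reads were sought in these low values only. No count test was run, because each time point had 1 library and FPKM are not counts. Exon overlaps come from GENCODE M21 and promoters from RefSeq (GRCm38.p6).

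Members, classes and further lists were chosen with earlier results of these data known. All 37 members are named; of the further lists, the 3 largest differences in each direction at 4 h and at 24 h against 0 h, over the 3 lists together, are named. Alternatives covered the pseudocount, the filter, the scaling and the threshold.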

Additional observations from a re-analysis of the deposited data

How the results depend on the processing

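No paired analysis was possible because each time point had 1 library, and for the same reason no library could be left out. Dropping the filter gave the same counts, and a pseudocount of 0.1 FPKM gave counts within 1.5 times. At 4 h against 0 h, the 23 lower genes became 12 with a pseudocount of 5 FPKM, 11 after centring each library on its median and 12 on the length-adjusted scale, and the 0 higher genes became 4 when centred, 3 when length-adjusted and 3 at 1.5-fold. At 24 h against 0 h, the 5 lower genes became 2 with a pseudocount of 5 FPKM and 11 at 1.5-fold, and the 1 higher gene became 2 with the length trend removed and 2 at 1.5-fold. At 24 h against 4 h, the 17 higher genes became 8 with a pseudocount of 5 FPKM, 8 when centred and 9 when length-adjusted, and the 1 lower gene became 2 when centred. A larger pseudocount pulls low genes together by construction; the cause of the other moves was not tested. Of the genes called at 4 h against 0 h, 22 of 23 kept their sign with the length trend removed, and Gabarap changed to 0.0088 from -1.10. All 6 genes called at 24 h against 0 h and all 18 called at 24 h against 4 h kept theirs on that scale. The other settings could not turn the sign of a called gene. A pseudocount or the filter leaves the sign as it is, and centring moved differences by less than the 2-fold limit. With the length trend removed, 12 of 23, 4 of 6 and 10 of 18 genes stayed past 2-fold in the same direction. Centred, these were 11 of 23, 6 of 6 and 9 of 18. Family shares moved by at most 6.28 percentage points with the length trend removed. Low depth limits Atg10 most, with 43.2 estimated reads at 8 h.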

Other observations

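A pair of genes next to Sqstm1 in the antioxidant pathway was looked at after the values were seen. Keap1, the adaptor that p62 can bind and that targets NRF2 for degradation, had 21.2, 30.5, 48.3, 58.8 and 40.1 FPKM from 0 to 24 h. Nfe2l2, which encodes NRF2, had 154, 109, 118, 89.5 and 79.8 FPKM at the same times. Keap1 was above 0 h in all 4 libraries under LPS and Nfe2l2 below it on the deposited scale; with the length trend removed, the 4 h and 8 h libraries were above it for Nfe2l2 (0.31 and 0.19). At 24 h against 0 h the difference was 0.89 for Keap1 and -0.94 for Nfe2l2 (0.93 and -0.74 with the length trend removed), neither of them 2-fold, whereas Keap1 was past 2-fold at 8 h (1.15) and at 12 h (1.43). The transcription factor genes that activate lysosome and autophagy genes differed among themselves: at 4 h against 0 h, Tfe3 was lower (23.4 FPKM at 4 h against 60.0 at 0 h; a difference of -1.32, or -0.68 with the length trend removed, under 2-fold) and Mitf was at 32.5 FPKM at 4 h against 18.0 at 0 h (0.82, or 1.23 with the length trend removed). At 24 h Tfe3 was at 59.7 FPKM and Mitf at 31.2 FPKM. In the closure and fusion list, Vmp1, a scramblase needed for autophagosome formation, was at 103 FPKM at 24 h against 44.9 FPKM at 0 h, and Plekhm1, an adaptor for lysosome fusion, was at 6.15 FPKM at 4 h against 41.8 FPKM at 0 h. These genes were also picked after their values were seen.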
